A study of Mus musculus with 4 samples.

Results

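Nonclassical monocytes of the mouse lung were picked out of single-cell RNA libraries made from sorted CD45.2-positive lung cells, and their abundance and gene expression were compared between genotypes and treatments. The cells were chosen by their own unique molecular identifier (UMI) counts. Barcodes were kept if they had over 200 genes detected and a mitochondrial UMI share below 15%. A kept barcode was a member if at least 2 of the 5 genes Cd300e, Ace, Treml4, Adgre4 and Eno3 had 1 UMI or more and if the 6 genes Vcan, F13a1, Cd3e, Cd79a, Marco and Car4 had 0 UMIs. This rule gave 1723 members among 27544 kept barcodes, or 6.26%.

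All mice were on the C57BL/6 background and carried floxed Ift20 alleles, either without Cre (Ift20 f/f, called WT) or with the CD4 cre transgene (Ift20 f/f CD4 cre, called KO). According to the methods they were male and 5 to 10 weeks old. CD4 cre acts in developing T cells, and its target Ift20 encodes a subunit of the intraflagellar transport machinery. Papain, a plant cysteine protease used as an inhaled allergen, was given into the nose at 25 µg on 3 consecutive days and again on day 14, and lungs were taken on day 15. The other mice received DPBS, a buffered saline. There was 1 library per genotype and treatment, named DPBS WT and DPBS KO for the saline pair and Papain WT and Papain KO for the papain pair. Values for the 4 libraries are given in that order throughout, and a pair of numbers in parentheses after a value holds the bounds of its interval. Groups could not be tested against each other, since each is a single library, and no difference below has a replicate check. The number of mice behind a library is not given in the sources used here. Intervals are exact 95% intervals and cover counting error only.

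Nonclassical monocytes are the Ly6C-low monocytes of mouse blood. They arise largely from classical, Ly6C-high monocytes, depend on the nuclear receptor NR4A1 and on CSF1 receptor signalling, and crawl along the inner wall of small vessels by means of the integrin LFA-1, whose alpha chain is encoded by Itgal. The lung holds a large pool of them in its capillaries. CD300E is an activating surface receptor, ACE is angiotensin-converting enzyme, TREML4 is a receptor of the TREM family, ADGRE4 is an adhesion G protein-coupled receptor and ENO3 is a muscle-type enolase.

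The members numbered 418, 388, 532 and 385 of 8144, 5704, 7994 and 5702 kept barcodes. They carried a median of 8314, 8120, 6284 and 8489 UMIs, so cells of the Papain WT library were the shallowest, and between 3401209 and 4029281 UMIs in all per library. Because the rule used UMI counts, a shallower cell had a smaller chance to be chosen by its positive genes and a larger chance to pass the 6 genes required at 0. Across the 4 libraries 65 barcodes occurred in more than 1 library, 13 of them members in at least 1, and none was a member in more than 1. Doublets were not removed, and 32 members were among the barcodes with the highest Scrublet doublet scores.

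The genes that chose the cells are described here without a test. In CPM, the UMIs of a gene summed over members and scaled to 1e+06 UMIs, Ace was at 1047, 1032, 1003 and 983, Treml4 at 492, 512, 476 and 510.0, Adgre4 at 451, 454, 469 and 433, Cd300e at 298, 272, 328 and 275 and Eno3 at 687, 541, 533 and 546. All but Eno3 were nearly level over the libraries, and Eno3 was highest in DPBS WT. Ace (ENSMUSG00000020681) lies on chr11:105967945-105989964, Treml4 (ENSMUSG00000051682) on chr17:48264295-48275360, Adgre4 (ENSMUSG00000032915) on chr17:55749984-55853662, Cd300e (ENSMUSG00000048498) on chr11:115051917-115062177 and Eno3 (ENSMUSG00000060600) on chr11:70657202-70662513 of GRCm38, as annotated in GENCODE M21.

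The 250 bases before the RefSeq start of Ace and Treml4 (GRCm38.p6) are shown because these 2 of the 5 choosing genes hold the hexamer GAGGAA, a core bound by PU.1 and other ETS factors, which is in capitals (TTCCTC where it lies on the other strand). The window of Ace spans chr11:105967698-105967947, plus strand, and that of Treml4 chr17:48264045-48264294, plus strand.
Ace: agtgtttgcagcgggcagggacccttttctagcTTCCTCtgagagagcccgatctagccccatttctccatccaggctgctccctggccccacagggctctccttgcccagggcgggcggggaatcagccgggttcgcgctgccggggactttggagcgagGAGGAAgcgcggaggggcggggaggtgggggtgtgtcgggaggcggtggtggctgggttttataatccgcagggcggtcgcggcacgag
Treml4: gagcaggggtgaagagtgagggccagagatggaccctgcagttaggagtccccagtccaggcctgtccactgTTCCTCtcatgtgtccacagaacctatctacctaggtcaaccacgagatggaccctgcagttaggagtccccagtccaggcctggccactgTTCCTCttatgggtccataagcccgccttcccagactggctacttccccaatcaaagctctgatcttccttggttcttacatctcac
Searched on both strands, GAGGAA occurred in 23.1% of 27025 mouse promoter windows of this length. In Treml4 both copies stood on the minus strand of the window, at bases 73 to 78 and 164 to 169. Ace held a copy on each strand, at bases 162 to 167 and 34 to 39. Of the other motifs searched, TTGCNNAA (C/EBP) was found in 9.55% of windows and in Adgre4 alone of the 5 genes, and AAAGGTCA (NR4A) in 1.31% of windows and in none of the 5.

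At the edge of the rule, 162 members had exactly 2 of the 5 positive genes, 186 had 3, 480 had 4 and 895 had all 5. Just outside it, 486 barcodes with 0 UMIs of the 6 exclusion genes had exactly 1 positive gene, and 423 barcodes with 2 or more positive genes were kept out by a single UMI of an exclusion gene, most often Cd79a (148 barcodes) or F13a1 (109 barcodes). In DPBS WT, Spn was detected in 32.9% of barcodes with 1 positive gene, 46.2% with 2, 75.5% with 3 and 96.8% with all 5, and Cx3cr1 in 11.8%, 28.2%, 67.9% and 89.4%. Members with 2 positive genes therefore lay between the barcodes outside the rule and the rest of the members.

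The markers Nr4a1, Csf1r and Spn, which the rule did not use, were detected more often in members than in the other gates. With each cell thinned to 2000 UMIs, Nr4a1 was detected in 83.5%, 85.8%, 87.6% and 87.0% of members, Csf1r in 85.8%, 81.5%, 81.5% and 81.6%, and Spn, the sialophorin CD43, in 58.8%, 57.8%, 56.3% and 55.9%. In B cells, gated by Cd79a and Ms4a1, thinned shares for Csf1r were 3.03% to 3.59% and for Spn 1.44% to 2.19%, whereas Nr4a1 was found in 33.3% to 43.8% of B cells. The classical gate had Csf1r in 61.5% to 67.8%, Nr4a1 in 42.4% to 60.0% and Spn in 7.14% to 13.6% of thinned cells. In a gate for macrophages with 2 or more C1q genes Csf1r was found in 57.3% to 63.0%, Nr4a1 in 51.7% to 63.0% and Spn in 0% to 8.33%, so the gap in percentage points to these gates was widest for Spn in each library. Other genes of the identity list were mixed in thinned cells. In DPBS WT, Fcgr4 was in 39.2% of members and 3.57% of the classical gate, but Cebpb was in 96.2% and 96.4%. Bcl2a1d was in 22.1% of members there and in 33.3% of the C1q gate. In DPBS KO, Cx3cr1 was in 30.1% of members and 27.1% of the classical gate. Before thinning, members with Csf1r were 96.7%, 95.6%, 94.5% and 96.6%, at the median depths given above, and B cells with Csf1r were 5.70% to 7.70% at median depths of 4027 to 4982 UMIs. Thinning left out 25, 16, 40 and 9 members with fewer UMIs than that.

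Transcripts on the lists of other cell types were common in members. Of the members, 316, 287, 383 and 326 had 2 or more genes of at least 1 such list. The list of interstitial macrophages, which includes the C1q genes and Apoe, was met by 59.8%, 56.7%, 55.6% and 65.2% and summed to 2812, 2648, 3274 and 3191 CPM, against 244, 405, 437 and 414 CPM in the pooled T and B gates. The 7 endothelial genes searched summed to 9.40, 10.0, 12.2 and 9.43 CPM, against 8.21 to 10.3 CPM in the T and B gates. The T cell list of 7 genes summed to 28.2, 15.9, 31.8 and 25.8 CPM. Immunoglobulin heavy chain Ighm was at 195, 123, 181 and 162 CPM, against 1571, 1057, 2325 and 3814 CPM in the T and B gates, while Ms4a1, which encodes CD20, was at 0.882 to 2.22 CPM. The neutrophil list of 6 genes summed to 3626, 2493, 4743 and 5123 CPM, against 244, 175, 366 and 518 CPM in the T and B gates, with all 6 detected in every library. The alveolar macrophage list of 8 genes summed to 651, 1012, 448 and 462 CPM, which was below the 1818, 1351, 2254 and 858 CPM of the T and B gates. Their part in the results below was not tested, except where a value without those cells is given.

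The first question was whether the share of nonclassical monocytes differed with genotype or treatment. Their share of kept barcodes was 5.13% (4.66, 5.63), 6.80% (6.16, 7.49), 6.65% (6.12, 7.22) and 6.75% (6.11, 7.43). The DPBS WT library was the lowest and the other 3 lay together. The log2 ratio of shares was 0.41 (0.20, 0.61) for KO over WT in DPBS and 0.02 (-0.17, 0.21) in papain. For papain over DPBS it was 0.37 (0.19, 0.56) in WT and -0.01 (-0.22, 0.20) in KO. The comparisons of KO with WT in DPBS and of papain with DPBS in WT share the DPBS WT library, which is the low one. A share of sorted cells is relative to all other cells in the library.

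Classical monocytes behaved otherwise. A gate for them required Vcan or F13a1 together with Ly6c2, Ccr2 or Chil3, no more than 1 of the 5 choosing genes and 0 UMIs of Cd3e, Cd79a, Marco and Car4. It held 84, 59, 191 and 72 cells, or 1.03%, 1.03%, 2.39% and 1.26% of kept barcodes. The papain over DPBS log2 ratio of that gate was 1.21 (0.83, 1.60) in WT and 0.29 (-0.23, 0.81) in KO. Of the cells in both monocyte gates together, nonclassical monocytes were 83.3% (79.7, 86.4), 86.8% (83.3, 89.8), 73.6% (70.2, 76.8) and 84.2% (80.6, 87.5), so on this denominator Papain WT was the lowest library. The direction for papain over DPBS in WT thus depended on the denominator. The log2 ratio was -0.18 (-0.37, 0.01) among monocytes and 0.37 (0.19, 0.56) among all kept barcodes. The interval of the ratio among monocytes treats each count as a small part of its total. It is therefore too wide for shares this high, and that it holds 0 decides nothing. On either denominator the binomial intervals of the shares in DPBS WT and Papain WT did not overlap.

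**Figure D1:**
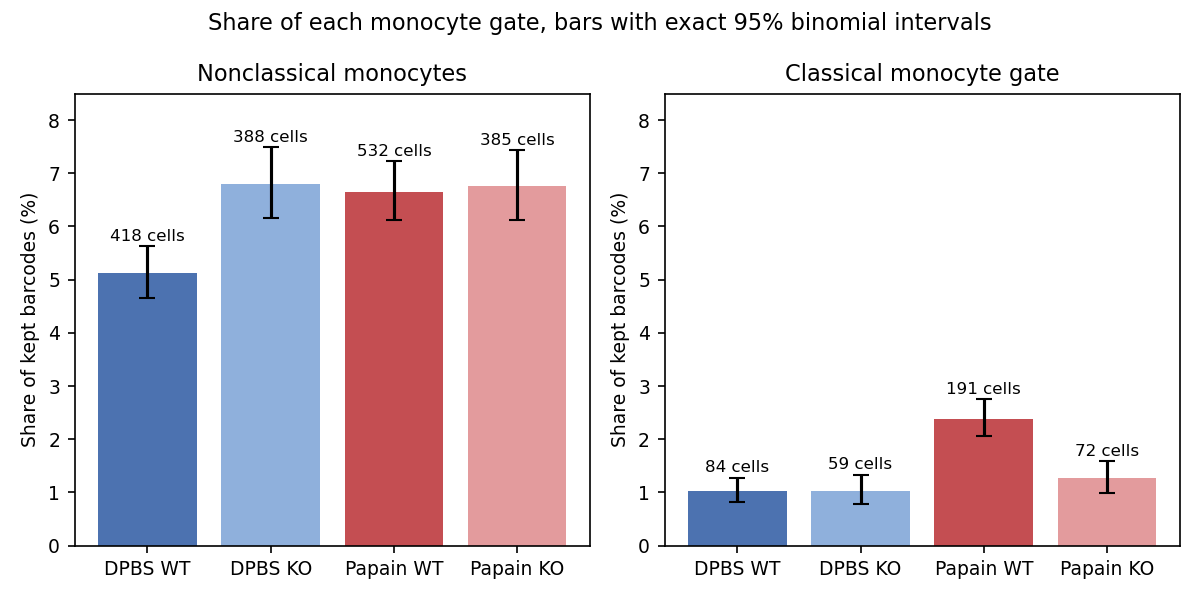
Share of kept barcodes (%) in the nonclassical monocyte set and in the classical monocyte gate, 1 bar per library, with exact 95% binomial intervals and the number of cells above each bar. The nonclassical share is 5.13% in DPBS WT and 6.65% to 6.80% in the other libraries, and the classical share is 2.39% in Papain WT and 1.03% to 1.26% in the others.

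Ift20 (chr11:78536361-78541737) was checked as the targeted gene. In nonclassical monocytes it was at 53.3, 49.7, 47.9 and 47.7 CPM, with a KO over WT log2 ratio of -0.10 (-0.41, 0.20) in DPBS and -0.01 (-0.31, 0.30) in papain. In barcodes with Cd3e and without Cd79a it was at 56.7, 24.3, 58.4 and 20.8 CPM, with ratios of -1.22 (-1.40, -1.04) and -1.49 (-1.67, -1.32). Both intervals of the monocytes hold 0, while the T cell gate of both KO libraries held less. Libraries of this kind read the 3′ end of a transcript and not the floxed exons, so a level does not show by itself whether an allele was deleted. B cells gave -0.48 (-0.70, -0.26) in DPBS and 0.32 (0.16, 0.48) in papain, of opposite sign.

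Set against classical monocytes of the same library, nonclassical monocytes had higher levels of S1pr5, Fcgr4 and Pglyrp1 and lower levels of Fn1 and Ly6c2. Both gates were defined by UMIs of these same cells, so the ratios are a description. Of 8195 genes, 229 were at least 2-fold higher and 173 at least 2-fold lower in every one of the 4 libraries. The sphingosine-1-phosphate receptor S1pr5, which guides lymphocyte and monocyte exit from bone marrow, was at 133, 131, 146 and 142 CPM against 5.27, 2.81, 2.74 and 0.956 CPM in the classical gate. Fcgr4, an activating receptor for IgG, was at 274, 375, 446 and 473 CPM against 22.1, 35.1, 27.4 and 37.3 CPM. The peptidoglycan-binding protein gene Pglyrp1 was at 639.5, 651, 692 and 623 CPM against 34.8, 15.4, 28.6 and 15.3 CPM. S1pr5, Fcgr4 and Pglyrp1 were named by their lowest ratio over the 4 libraries, so a lead in each library was fixed by that choice.

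The ion transporters and channels Slc12a2, a sodium-potassium-chloride cotransporter, and Scnn1a, an epithelial sodium channel subunit, were among the 12 genes with the highest lowest ratio, with log2 ratios of 4.73, 4.92, 6.04 and 6.07 and 2.96, 2.92, 3.73 and 5.31. So were the adhesion molecule L1cam (4.04, 3.11, 4.16 and 3.72), the receptor Lilra5 (3.83, 3.40, 5.28 and 3.37), Cyfip2 of the actin-regulating WAVE complex (3.39, 2.96, 3.09 and 4.62), the MAP kinase phosphatase Dusp16 (4.01, 3.43, 3.72 and 2.96), Spn (2.92, 3.15, 3.64 and 3.56), the transglutaminase Tgm3 (4.27, 5.09, 6.75 and 4.01) and Tmem26 (4.54, 3.78, 4.20 and 4.93). Slc12a2 had 0 UMIs in the classical gate of DPBS KO, and Tgm3 in that of DPBS WT and Papain KO, so these values were set against a floor of 3 counts and are lower bounds.

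Genes far lower than in classical monocytes included the fibronectin gene Fn1, at 55, 74.7, 77.2 and 63.2 CPM against 1059, 1036, 1561 and 2881 CPM, and Ly6c2, which encodes the Ly6C antigen, at 107, 52.9, 50.9 and 58.5 CPM against 1374, 891, 694 and 469 CPM. Ly6c2 was one of the genes that could choose the classical gate. In thinned cells of that gate, Ly6c2 was detected in 69.0%, 55.9%, 53.5% and 34.3% and C1qb in 5.95%, 10.2%, 4.81% and 25.7%. Fn1 was detected in 29.6%, 45.8%, 53.9% and 76.5% of the thinned C1q gate, against 71.4%, 62.7%, 72.7% and 72.9% of the classical gate. The part of cells with C1q transcripts in the ratios to the classical gate was not tested. In the T and B gates Ly6c2 was at 148, 95.7, 113 and 123 CPM, above its level in nonclassical monocytes. The chemokine genes Ccl7 and Ccl24, the proteases Prtn3 and Mmp12, the synaptic vesicle gene Syngr1 and Gas7 were at or below 20.6 CPM in members of every library. For Prtn3, Syngr1, Ccl24 and Mmp12 at least 1 library of members had 0 UMIs, and the ratio there is an upper bound from the same floor.

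**Figure D2:**
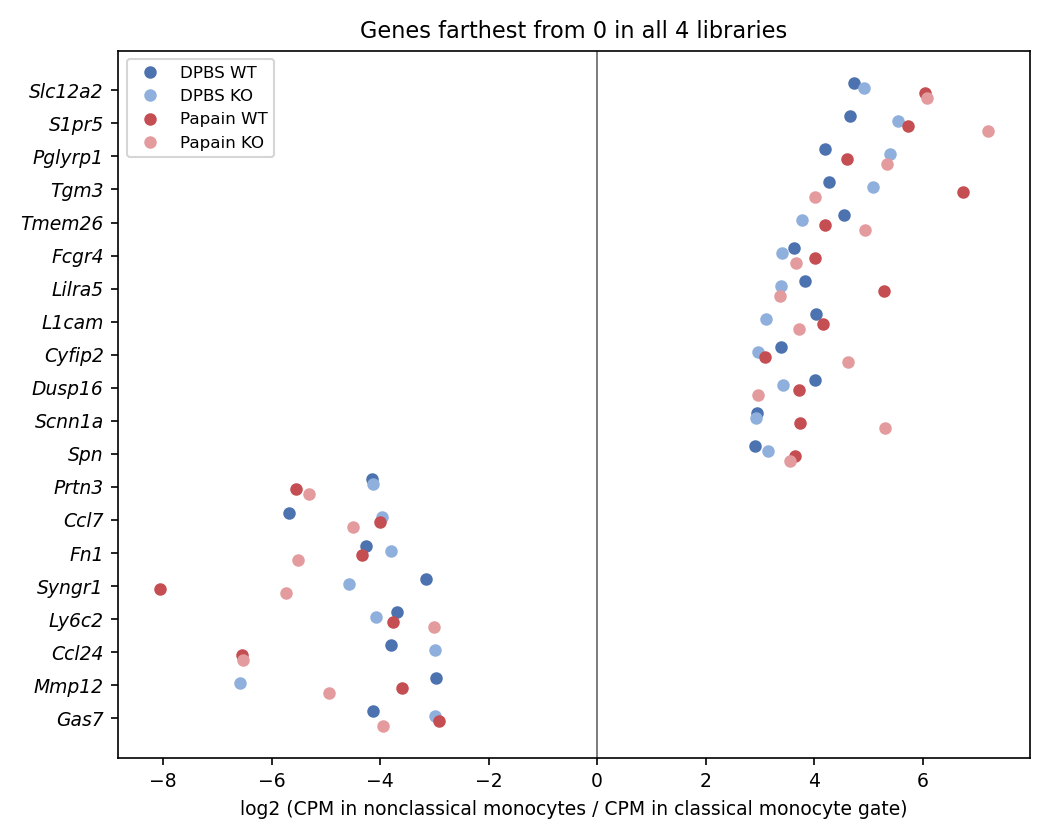
Log2 ratio of CPM in nonclassical monocytes over CPM in the classical monocyte gate, for the 12 genes with the highest lowest ratio and the 8 with the lowest highest ratio, 1 point per library. All points of the upper 12 genes lie above 2.9 and those of the lower 8 at or below -2.91. A gate at 0 UMIs is set to a floor of 3 counts.

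Members of 1 library differed most from each other in antigen presentation and in neutrophil-type calgranulins. With every cell thinned to 2000 UMIs, the 12 genes of the MHC class II list summed to a median of 8, 8, 6 and 8 UMIs per cell, while the percentile 90 of cells was 77.2, 55.0, 66.6 and 62.5 UMIs and the highest cell held 251, 282, 226 and 249. Cd74, the invariant chain, had a variance of 30.0 to 39.1 times its mean and H2-Aa of 14.0 to 17.6 times. Interferon-stimulated genes were far more even, with a median of 19, 17, 17 and 17 UMIs and a percentile 90 of 31, 27, 27 and 26.

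Members with 10 or more UMIs of H2-Aa numbered 84, 73, 93 and 75, or 20.1%, 18.8%, 17.5% and 19.5% of members. Nr4a1 was detected in 96.4%, 100%, 92.5% and 100% of them. Spn was detected in 89.3%, 78.1%, 75.3% and 86.7%, against 88.4%, 88.3%, 89.0% and 93.0% of members without many UMIs of H2-Aa, calgranulins or C1q. Fcgr4 was detected in 52.4%, 64.4%, 50.5% and 70.7%, against 70.9%, 76.7%, 80.7% and 87.2% of those other members, so it was the lower in all 4 libraries. They had a median of 4 of the 5 choosing genes in each library, against 5, and 15 of the 325 cells were among the barcodes with the highest doublet scores, against 13 of 1216. Ccr2, the receptor by which classical monocytes leave the marrow, was detected in 48.8%, 53.4%, 48.4% and 58.7% of them, against 24.0%, 17.0%, 18.0% and 20.9% of the same other members. Their median depth was 11335, 12085, 12122 and 12500 UMIs against 6452, 6630, 5564 and 7100, so the detection shares are not at equal depth. Flt3, a receptor of dendritic cells and their progenitors, was detected in 9.52%, 6.85%, 12.9% and 8.0% of them. These cutoffs were set after the values were seen.

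The calgranulin genes S100a8 and S100a9, whose products form calprotectin, were carried by few members. In all, 45, 35, 62 and 56 members with 10 or more of their UMIs, or 10.8%, 9.02%, 11.7% and 14.5% of members, held 99.5%, 99.4%, 99.4% and 99.6% of all calgranulin UMIs in members. The same cells had Csf3r, the G-CSF receptor, in 100%, 100%, 98.4% and 100% and the neutrophil gene Retnlg in 88.9%, 85.7%, 83.9% and 87.5%. They also had Nr4a1 in 100%, 97.1%, 96.8% and 100%, Csf1r in 97.8%, 94.3%, 91.9% and 98.2% and a median of 5, 5, 4 and 5 of the 5 choosing genes. Of these 198 cells 5 were among the barcodes with the highest doublet scores, against 32 of all 1723 members and 13 of the 1216 without many UMIs of H2-Aa, calgranulins or C1q. S100a8 was found in 3.42%, 2.37%, 7.00% and 4.74% of B cells.

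The second question was whether T cell deletion of Ift20 went with a change in the monocytes. In DPBS, 123 of 7943 genes with 100 UMIs or more over the libraries (1.55%) differed 2-fold or more between KO and WT, 52 higher (0.655%) and 71 lower (0.894%). In papain there were 83 (1.04%), 28 higher (0.353%) and 55 lower (0.692%). The median log2 ratio over all genes was -0.01 in both. No gene among 24 compared of the nonclassical identity list was past 2-fold in either comparison, and the list's medians were 0.02 and 0.02. A count of 0 among 24 is near the shares over all genes. The cells were also chosen by genes of the same cell type, so this count cannot show whether identity changed.

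Interferon-stimulated genes were lower in the DPBS KO library. Of the 37 genes compared from a list of 44, 10 were 2-fold or more lower in DPBS against 0.894% of all genes, and 33 had a ratio below 0, with a median of -0.61 on the log2 scale against -0.01 over all genes. In papain 0 were 2-fold lower and 1 was higher, with a median of -0.24. For papain over DPBS 0 were 2-fold higher and 2 lower in WT and 1 higher and 0 lower in KO, with medians of -0.23 and 0.13. The list was chosen with earlier results of these data known, and its genes respond to the same signal, so they are not independent. Over the other settings tried for the same comparison in DPBS, 4 to 18 genes of the list were 2-fold lower and the median ranged from -0.85 to -0.56.

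Among the antiviral effectors, Ifit3, which binds foreign RNA complexes, was at 17.4, 5.59, 8.93 and 8.60 CPM, with a KO over WT log2 ratio of -1.64 (-2.46, -0.88) in DPBS and -0.06 (-0.80, 0.68) in papain. The oligoadenylate synthetase gene Oas3 was at 41.5, 20.3, 34.2 and 24.7 CPM, for a log2 ratio of -1.03 (-1.46, -0.61) and -0.47 (-0.87, -0.08). Rtp4, an interferon-induced chaperone and restriction factor, was at 57.5, 27, 45.2 and 25.2 CPM, for a log2 ratio of -1.09 (-1.46, -0.73) and -0.84 (-1.22, -0.47). Oas2 was at 14.4, 6.76, 12.9 and 7.49 CPM and the ubiquitin ligase gene Herc6 at 21.3, 10.6, 20.4 and 19.1 CPM. For all 5 of these genes both KO libraries lay below both WT libraries, though for Ifit3 and Herc6 by little in papain.

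The DNA sensors of the interferon-inducible p200 family were Ifi209 at 57.8, 28.5, 39.7 and 36.3 CPM, for a log2 ratio of -1.02 (-1.38, -0.66) in DPBS and Ifi213 at 14.4, 6.47, 5.96 and 3.88 CPM, for a log2 ratio of -1.15 (-1.94, -0.41). The Schlafen gene Slfn8 was at 43.1, 18.8, 32 and 30.5 CPM, for a log2 ratio of -1.20 (-1.64, -0.77), the immunity-related GTPase gene Ifi47 at 24.9, 11.5, 16.6 and 19.4 CPM, for a log2 ratio of -1.12 (-1.70, -0.56) and Phf11d at 18, 8.53, 11.7 and 6.93 CPM, for a log2 ratio of -1.08 (-1.76, -0.42). Members of the p200, Oas and Schlafen families are similar in sequence, so reads could be split between neighbours.

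Other genes of the list differed less. The antiviral membrane protein gene Ifitm3 was at 4295, 3655, 3474 and 3664 CPM, Ly6e at 2010.4, 1798, 1779 and 1863 CPM, Isg15, a ubiquitin-like modifier, at 109, 70.3, 88.6 and 88.5 CPM and the transcription factor Irf7 at 168, 171, 143 and 154 CPM. Irf7 showed no order between genotypes, with 0.03 (-0.14, 0.19) and 0.11 (-0.06, 0.28). Gbp2, a guanylate-binding protein, was higher in DPBS KO, at 28.2, 44.7, 25.8 and 33.3 CPM, with 52 of the 152 UMIs there in 1 cell.

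Rsad2, which encodes viperin, differed in opposite directions, at 37, 20.3, 19.1 and 41 CPM with -0.87 (-1.31, -0.44) in DPBS and 1.10 (0.70, 1.52) in papain. In Papain KO 32 of its 148 UMIs came from 1 cell, and without the top cell of each library no interferon gene was 2-fold higher in papain.

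The other cells of the DPBS KO library also had lower levels of these genes. Over all kept barcodes that were not members, the KO over WT log2 ratio in DPBS was -1.16 for Ifit3, -0.91 for Rtp4, -0.66 for Oas3, -0.52 for Slfn8 and -0.54 for Ifi209. Each had the sign seen in the monocytes and a smaller size. For Isg15 it was -0.19 against -0.64 in the monocytes. The part of the library in the ratios of the monocytes was not tested.

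Promoter windows of Ifit3, Oas3 and Rsad2 (250 bases before the RefSeq start, GRCm38.p6) are shown, each written in the direction of its gene, because they hold the core of the interferon-stimulated response element, GAAANNGAA, in capitals. This motif was added after the values were seen. The windows are chr19:34583279-34583528, plus strand for Ifit3, chr5:120777660-120777909, minus strand for Oas3 and chr12:26456453-26456702, minus strand for Rsad2.
Ifit3: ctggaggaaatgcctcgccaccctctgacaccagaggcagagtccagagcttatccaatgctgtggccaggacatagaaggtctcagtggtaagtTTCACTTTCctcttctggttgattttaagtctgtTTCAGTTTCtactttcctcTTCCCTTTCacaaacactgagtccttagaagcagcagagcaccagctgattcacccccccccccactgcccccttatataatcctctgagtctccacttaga
Oas3: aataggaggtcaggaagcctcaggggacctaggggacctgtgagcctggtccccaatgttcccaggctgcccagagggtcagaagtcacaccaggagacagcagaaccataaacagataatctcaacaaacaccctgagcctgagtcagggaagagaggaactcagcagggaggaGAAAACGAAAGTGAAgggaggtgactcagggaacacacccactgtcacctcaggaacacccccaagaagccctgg
Rsad2: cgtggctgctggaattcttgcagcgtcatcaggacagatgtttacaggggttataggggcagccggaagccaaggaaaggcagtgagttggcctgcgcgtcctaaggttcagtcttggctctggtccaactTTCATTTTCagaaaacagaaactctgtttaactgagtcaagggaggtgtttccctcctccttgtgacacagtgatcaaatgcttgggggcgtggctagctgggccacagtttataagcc
Ifit3 held 3 copies on the minus strand of its window, at bases 96 to 104, 130 to 138 and 149 to 157. Oas3 had 2 overlapping copies on the plus strand at bases 176 to 190, and Rsad2 1 copy at bases 132 to 140. The motif was present in 7.16% of the 27025 windows, in 18 of the 29 list genes that matched a window and in 4 of the 8 matched genes that were 2-fold lower in DPBS KO. The motif was thus frequent in the list as a whole, of which the lower genes are a part.

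**Figure D3:**
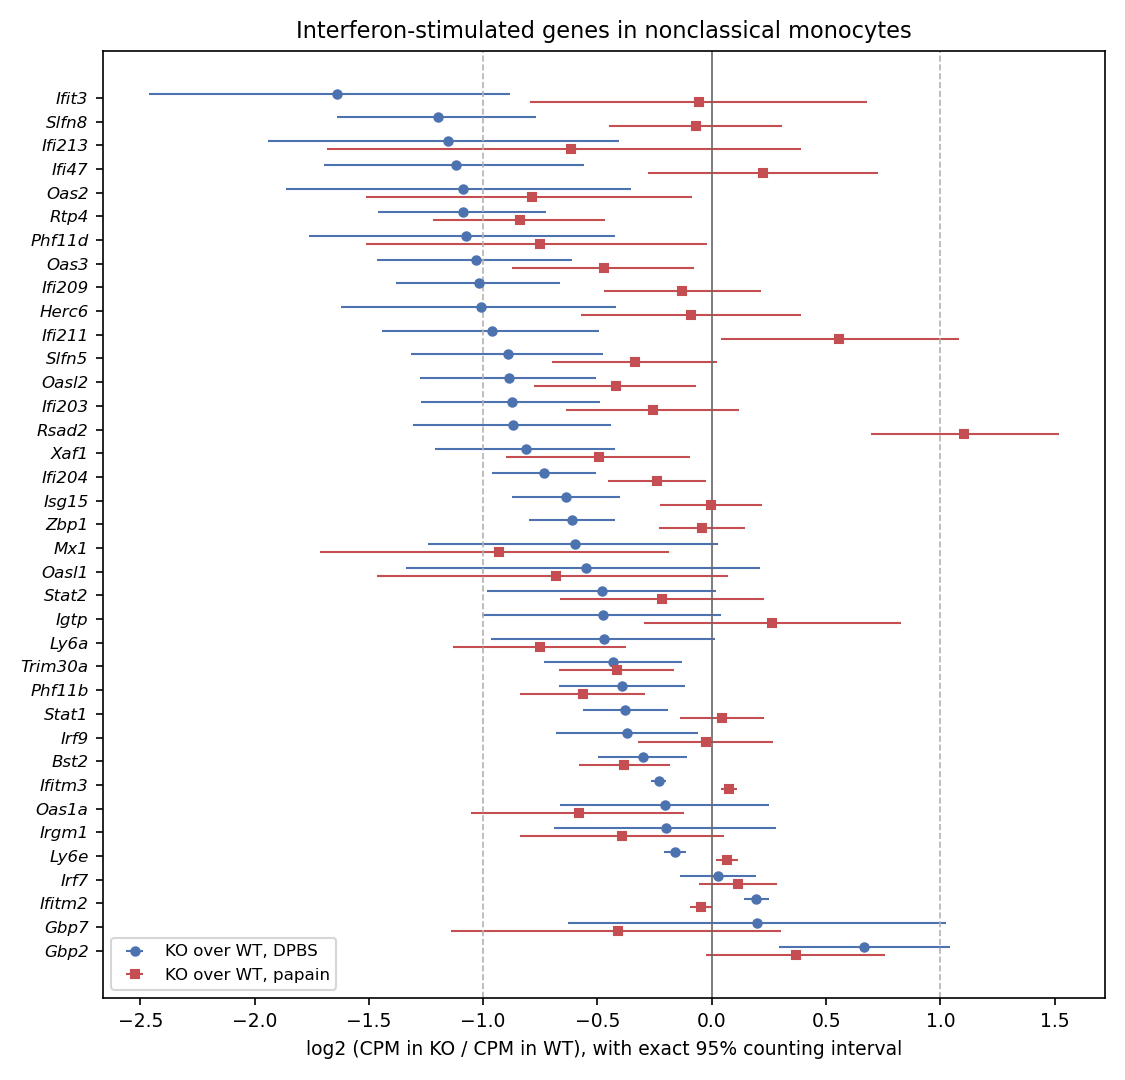
Log2 ratio of CPM in KO over WT for the 37 interferon-stimulated genes compared, with DPBS as circles and papain as squares, bars for exact 95% counting intervals and dashed lines at 2-fold. In DPBS 33 of the 37 genes lie left of 0 and 10 left of the 2-fold line; in papain only Rsad2 passes a 2-fold line, at 1.10.

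A few genes had a higher level in KO in both treatments. Fkbp5, an immunophilin that glucocorticoids induce and that restrains their receptor, was at 20.5, 47.6, 37 and 82.1 CPM, and KO over WT came to 1.22 (0.81, 1.64) with DPBS and 1.15 (0.86, 1.44) with papain (log2). Each KO library lay above the WT library of its treatment, and each papain library above the DPBS library of its genotype, with 0.85 (0.44, 1.28) in WT and 0.79 (0.50, 1.07) in KO. The difference was spread over cells, with a UMI in 55, 104, 107 and 179 members, 13.2, 26.8, 20.1 and 46.5%, and no more than 7 UMIs in any cell. Thinned to 2000 UMIs, 2.54%, 9.14%, 6.71% and 15.7% of members had a UMI, against 1.25%, 2.80%, 3.27% and 4.32% of B cells, 4.76%, 8.47%, 10.7% and 10.0% of the classical gate and 11.1%, 20.8%, 3.37% and 20.6% of the C1q gate, which held 27, 24, 89 and 34 cells after thinning. Before thinning the classical gate had Fkbp5 in 23.8%, 37.3%, 37.7% and 51.4%. The order of KO above WT was thus also present in thinned B cells, in the C1q gate and, before thinning, in the classical gate. In the C1q gate the binomial intervals of WT and KO overlapped in both treatments. They were 2.35% to 29.2% and 7.13% to 42.2% in DPBS, and 0.701% to 9.54% and 8.70% to 37.9% in papain. In the T and B gates Fkbp5 was at 21.1, 20.6, 25 and 28 CPM, and over all cells that were not members the KO over WT ratios were 0.58 and 0.39.

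Slc15a2, a peptide transporter gene, was at 8.57, 19.1, 2.23 and 28.8 CPM, and KO over WT came to 1.16 (0.52, 1.82) with DPBS and 3.69 (2.71, 4.86) with papain (log2). Papain WT was the lowest library, with 9 UMIs in 7 cells. The same order was present in the T and B gates, at 8.41, 23.3, 2.84 and 29.1 CPM, and in all cells that were not members, with ratios of 1.46 and 3.60. The ratios outside the monocytes were thus close to those within them.

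Of the other genes higher in both pairs, Thap1 (7.46, 12.9, 6.95 and 13 CPM), the serine synthesis gene Psat1 (4.42, 11.2, 5.21 and 8.87 CPM), Snx29 (5.53, 9.11, 6.95 and 11.9 CPM) and Aig1 (9.40, 17.3, 9.93 and 16.4 CPM) were low and spread over 14 to 49 cells per library. Their smaller ratio of the 2 pairs was 0.79, 0.77, 0.72 and 0.72. The chemokine gene Cxcl10 was at 16.6, 43.5, 27.5 and 80.4 CPM, but 228 of its 290 UMIs in Papain KO and 93 of 148 in DPBS KO were in 1 cell. Without the top cell of each library the papain ratio was -0.28, against 1.55 with it. Pmp22 was at 5.53, 15.6, 5.21 and 10.8 CPM, and Hebp1 and Cidec, which are listed again with papain, at 15.2, 30.9, 3.23 and 7.77 and 10.8, 22.1, 2.23 and 4.44 CPM.

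Genes lower in KO in both pairs mostly sat in a handful of cells. Fscn1, the actin bundler of mature dendritic cells, had 52, 0, 71 and 12 UMIs in 3, 0, 2 and 1 cells. Lyz1 had 356, 26, 354 and 102 UMIs, 313 of the 354 in Papain WT being in 1 cell. The cyclin gene Ccnd1 (13, 5.29, 24.3 and 6.38 CPM), Il10 (5.53, 2.35, 14.6 and 3.88 CPM) and Mmp12 (4.15, 0, 20.6 and 2.77 CPM) each had between 25 and 64 of their UMIs in Papain WT in 1 cell. More evenly spread were Slc5a3, a myo-inositol transporter gene, at 9.67, 4.41, 11.9 and 4.99 CPM, for a log2 ratio of -1.13 (-2.11, -0.22) and -1.25 (-2.12, -0.45), and Gpr183, a receptor for oxysterols, at 14.1, 7.06, 9.43 and 3.61 CPM, for a log2 ratio of -1.0 (-1.76, -0.27) and -1.39 (-2.42, -0.45). Gpr183 was at 72, 76.6, 88.6 and 84.3 CPM in the T and B gates. The remaining genes were Klrd1 (15.2, 7.06, 14.4 and 4.71 CPM), Scgb1a1 (12.4, 2.65, 8.19 and 3.88 CPM) and Cxcl1 (16, 7.64, 10.2 and 3.88 CPM).

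Several monocyte genes set the DPBS WT library apart from the other 3. Dusp16 was at 221, 379, 411 and 305 CPM, with a KO over WT log2 ratio of 0.78 (0.65, 0.91) in DPBS and -0.43 (-0.54, -0.32) in papain. The tissue transglutaminase gene Tgm2 was at 359, 607, 558 and 489 CPM and the costimulatory gene Cd80 at 21.3, 53.5, 40.0 and 35.5 CPM, also lowest in DPBS WT. The LPS coreceptor gene Cd14 (277, 489, 510.0 and 496 CPM) and the C-type lectin gene Clec4e (129, 228, 220.4 and 209 CPM) were lowest in DPBS WT too. Both were named after their values were seen. In the opposite direction, the fractalkine receptor gene Cx3cr1, needed for survival of these cells, was at 309.5, 214, 224 and 241 CPM and Ly6c2 at 107, 52.9, 50.9 and 58.5 CPM, both highest in DPBS WT. Since both the genotype contrast in DPBS and the papain contrast in WT use that library, a difference of the library would appear in both with the same sign. Over the cells that were not members the KO over WT ratios in DPBS were 0.43 for Dusp16, 0.46 for Cd14, -0.44 for Cx3cr1 and -0.67 for Ly6c2.

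**Figure D4:**
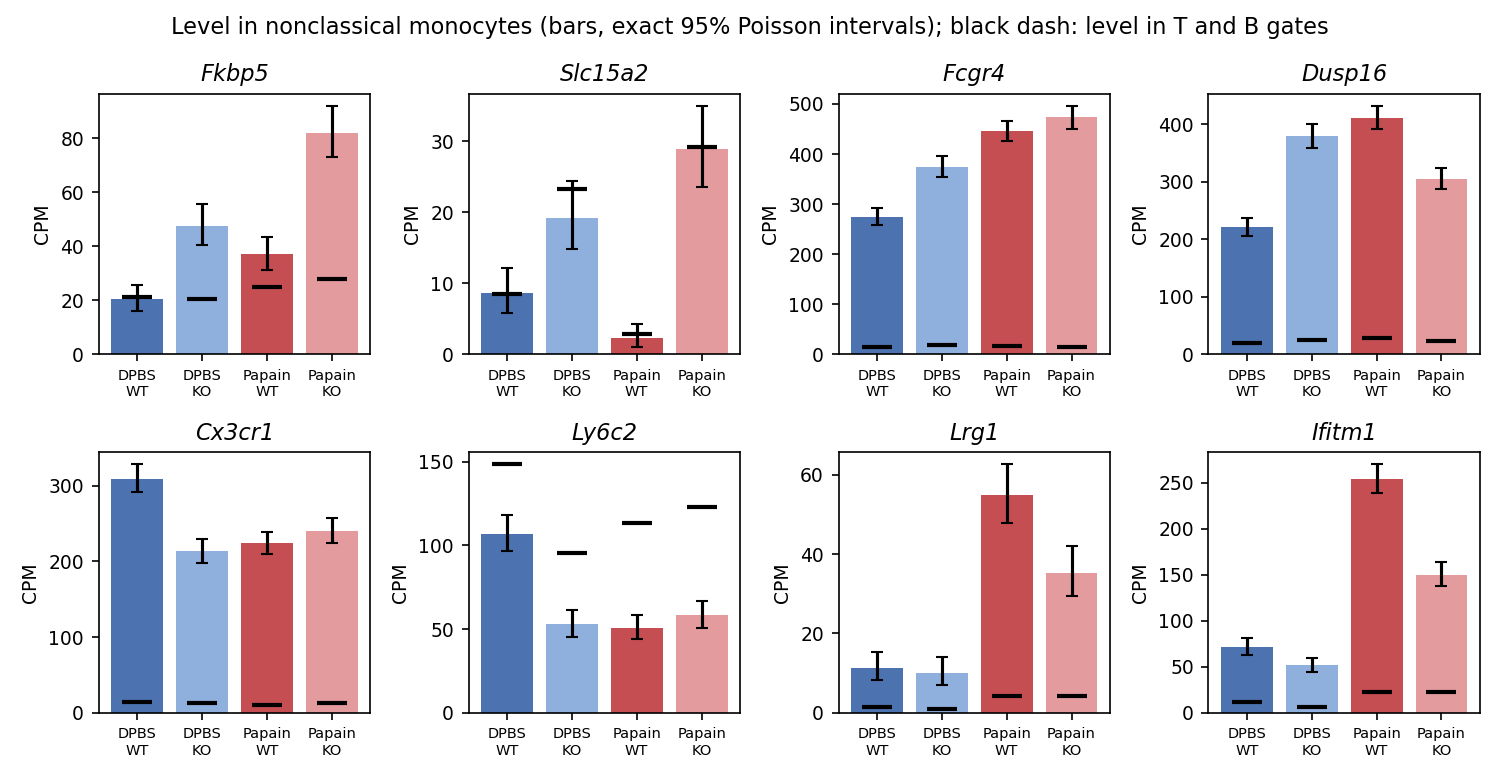
Level (CPM, linear axis from 0) of 8 genes in nonclassical monocytes by library, with exact 95% Poisson intervals, and a black dash for the level in the pooled T and B gates. Fkbp5 is highest in Papain KO at 82.1 CPM, Slc15a2 follows the dashes, Dusp16, Cx3cr1 and Ly6c2 set DPBS WT apart, Fcgr4 is lowest in DPBS WT, and Lrg1 and Ifitm1 are higher in both papain libraries.

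The third question was how nonclassical monocytes differed after papain. In WT 106 of 7943 genes (1.33%) were past 2-fold, 57 higher (0.718%) and 49 lower (0.617%). In KO 127 (1.6%) were, 53 higher (0.667%) and 74 lower (0.932%). The medians over all genes were 0.00 and -0.01. Again 0 of the 24 identity genes were past 2-fold, which is near the shares over all genes, with medians of 0.07 and 0.02.

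Fcgr4 was higher with papain in both genotypes, at 274, 375, 446 and 473 CPM, with log2 ratios of 0.70 (0.59, 0.81) in WT and 0.34 (0.23, 0.44) in KO. It was lower with papain in the cells that were not members, at -0.18 and -0.67. The transcription factor gene Klf2 was at 1228, 1379.5, 1590.1 and 1667 CPM, with 0.37 (0.32, 0.43) and 0.27 (0.22, 0.33). Ear2, a ribonuclease of the eosinophil-associated family, was lower with papain, at 625, 545, 459.6 and 466 CPM, for a log2 ratio of -0.44 (-0.53, -0.35) and -0.23 (-0.32, -0.13). It has near-identical paralogs. The transcription factor genes Nr4a1 and Cebpb, on which these cells depend, were at 1351, 1549, 1418 and 1485 CPM and 4387, 5051, 4599.6 and 4819.8 CPM.

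Lrg1, Ifitm1 and Wfdc17 were among the 10 genes with the largest smaller ratio for papain over DPBS in both genotypes. Lrg1, a leucine-rich glycoprotein of the acute-phase response, was at 11.3, 10.0, 54.8 and 35.2 CPM, with log2 ratios of 2.28 (1.79, 2.79) in WT and 1.82 (1.26, 2.41) in KO, and was found in 18, 16, 57 and 40 members. Both papain libraries lay above both DPBS libraries, and in the T and B gates Lrg1 was at 1.48, 1.03, 4.32 and 4.27 CPM. Over the cells that were not members the papain ratios of Lrg1 were 2.30 and 2.14. The interferon-induced membrane protein gene Ifitm1 was at 71.6, 51.7, 254 and 150.3 CPM, for a log2 ratio of 1.83 (1.63, 2.03) and 1.54 (1.29, 1.79), and the antiprotease-family gene Wfdc17 at 30.1, 45.6, 173 and 101 CPM, for a log2 ratio of 2.52 (2.23, 2.82) and 1.14 (0.87, 1.42).

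Calgranulin genes were also higher with papain in KO. S100a8 was at 1341, 859.7, 1696 and 1855 CPM and S100a9 at 1870.0, 1293, 2554 and 2747 CPM, and the cystatin gene Stfa2l1 at 21.8, 5.59, 47.4 and 51.9 CPM. The papain ratios of S100a8 were 0.34 in WT and 1.11 in KO, against 1.40 and 1.31 over the cells that were not members. With the members rich in S100a8 and S100a9 or in C1q left out, the papain ratio of Ifitm1 in WT was -0.015, against 1.83 with them. In that setting the KO over WT ratio of Wfdc17 in papain was 0.27, against -0.78. The other genes higher in both pairs were the syndecan gene Sdc4 (2.21, 3.23, 11.2 and 12.2 CPM), the retinal dehydrogenase gene Aldh1a2 (4.15, 2.94, 15.1 and 11.1 CPM), Mmp12, the lectin gene Mgl2 (6.91, 7.64, 28.8 and 16.6 CPM), Paip2b (6.08, 8.23, 12.4 and 15.8 CPM) and Cks1b (8.57, 7.64, 15.6 and 14.1 CPM). For Aldh1a2 and Mgl2 most UMIs of Papain KO were in 1 cell, 37 of 40 and 58 of 60.

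Lpl, Fabp1 and other genes of alveolar macrophages were lower with papain in both genotypes. Lpl, lipoprotein lipase, was at 134, 137, 37.2 and 34.1 CPM, for a log2 ratio of -1.85 (-2.12, -1.58) in WT and -2.01 (-2.31, -1.72) in KO, and Fabp1, a fatty acid-binding protein gene, at 30.1, 21.8, 1.24 and 2.22 CPM, for a log2 ratio of -4.60 (-6.25, -3.33) and -3.29 (-4.56, -2.24). The lysosomal proton pump subunit gene Atp6v0d2 was at 25.7, 38.2, 4.72 and 8.04 CPM and the efferocytosis receptor gene Mertk at 15.2, 14.1, 1.74 and 4.44 CPM. Krt19 (26, 40.3, 6.45 and 6.66 CPM), Hebp1, Cidec, Gpnmb (17.1, 17.6, 1.74 and 4.99 CPM), F7 (11.6, 17.1, 3.72 and 5.82 CPM) and Angptl4 (11.9, 12.9, 1.24 and 4.44 CPM) completed the 10. Of the 7 alveolar macrophage genes compared, 4 were 2-fold lower in WT against 0.617% of all genes, and 5 in KO against 0.932%. Their medians were -1.24 and -2.25. Fabp1, Krt79 and Plet1 together had most of their UMIs in a few members with 10 or more. These held 303 of 342 UMIs in 6 cells of DPBS WT and 342 of 423 in 8 of DPBS KO. In Papain WT 64 of 108 were in 1 cell and in Papain KO 49 of 74 in 2. The part of these cells in the ratios was not tested. Lymphocytes held the same transcripts, with Lpl at 283, 190.1, 131 and 84.4 CPM and Fabp1 at 67.6, 33.4, 22.6 and 18.5 CPM in the T and B gates, which was above the monocytes in every library. Over the cells that were not members the papain ratios of Lpl were -1.03 and -1.22.

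Among the genes of classical monocytes, Ly6c2 was 2-fold lower in DPBS KO and with papain in WT, the protease gene Mmp8 was 2-fold higher with papain in KO, and 0 of 18 were past 2-fold between genotypes in papain. Of 21 scavenging and lipid genes, 0 were 2-fold higher and 2 lower with papain in WT, and 1 higher and 3 lower in KO. Over all genes these shares were 0.718% and 0.617% in WT and 0.667% and 0.932% in KO. Of 22 survival and fate genes, only Bcl2l1, which encodes the antiapoptotic protein Bcl-xL, was past it, higher in DPBS KO at 6.36, 14.4, 11.4 and 9.71 CPM, for a log2 ratio of 1.18 (0.44, 1.96). Among the adhesion and patrolling genes, Pecam1 was 2-fold higher with papain in WT, at 24.3, 31.8, 50.9 and 36.6 CPM, for a log2 ratio of 1.06 (0.70, 1.44). The integrin genes Itgal, at 1008, 1019.6, 1036 and 1009 CPM, and Itga4, at 383, 382, 433 and 428 CPM, were nearly level. Of 22 paired innate receptor genes, 0 were past 2-fold in any comparison. Over all genes compared, 1.04% to 1.6% were past 2-fold in either direction, depending on the comparison.

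Of 14 Fc receptor and complement genes compared, 5 were 2-fold higher with papain in WT against 0.718% of all genes. They included C1qa, C1qb, C1qc and properdin Cfp. The C1q genes were the 3 that were 2-fold lower with papain in KO, against 0.932% of all genes. Cfp was at 37, 47, 75.2 and 34.9 CPM, with 100 of its 303 UMIs in Papain WT in 1 cell.

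Among 17 inflammatory mediators, Il1b was at 1711, 1388, 1794 and 1704 CPM and Tnf at 54.4, 54.1, 46.9 and 54.9 CPM, nearly level, and Il18 was lower with papain at 28.2, 33.5, 11.9 and 15 CPM, for a log2 ratio of -1.24 (-1.77, -0.73) and -1.16 (-1.66, -0.68). Among 13 chemokine genes, Ccl4 was at 179, 95, 83.1 and 167 CPM, for a log2 ratio of -0.92 (-1.11, -0.72) for KO over WT in DPBS and 1.01 (0.81, 1.20) in papain, so that DPBS WT and Papain KO were the high libraries. Ccl2 was at 37.9, 21.2, 36.2 and 79.6 CPM, highest in Papain KO. Up to 114 of the Ccl4 UMIs and 67 of the Ccl2 UMIs of that library were in 1 cell.

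Of 14 type 2 response genes, all 14 had a positive KO over WT ratio in DPBS, 4 of them 2-fold or more against 0.655% of all genes, and 4 were 2-fold lower in papain against 0.692%. With papain 4 were 2-fold higher in WT against 0.718%, and 5 were 2-fold lower in KO against 0.932%. The list's median log2 ratios were 0.69 and -0.29 for KO over WT, and 0.47 and -0.63 for papain over DPBS. Those past 2-fold included Retnla, Ccl17, Cd209a and Clec10a, whose UMIs sat in few cells. The dendritic cell list, which also holds Cd209a, summed to 76.8, 64.7, 133 and 43.8 CPM. All 4 of its 8 genes that were compared were 2-fold lower in KO in papain, against 0.692% of all genes. The part of such cells in these counts was not tested. The interleukin-4 receptor gene Il4ra was at 43.4, 46.7, 62.8 and 52.1 CPM. Arg1, an arginase that marks alternatively activated macrophages, had 1, 0, 1 and 2 UMIs and Alox15 had 0 UMIs in all 4 libraries, which allows up to 0.745 to 0.882 CPM.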

How the data were processed

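Deposited 10x Genomics 3′ v3 matrices of UMI counts per gene and barcode were used, 1 per library, for live CD45.2-positive lung cells of 4 groups. The authors had restricted them to called cells with Cell Ranger (no version given) against mm10, and the file headers name software version 3.1.0. Each file lists 31053 genes. No replicate exists, so groups follow the labels and no p-value was computed. Library totals were 53854420 to 75675956 UMIs.

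Members, chosen by UMIs as described in the report, and gene lists were chosen with earlier results of these data known. UMIs were summed per library and divided by the summed UMIs (CPM). Genes with 100 UMIs or more over the libraries were compared at 2-fold. Shares have Clopper-Pearson, CPM exact Poisson and ratios exact conditional binomial 95% intervals, for counting error only. A library at 0 was set to a floor of 3 counts. The floor was 0.745 to 0.882 CPM. Scrublet (from scanpy 1.11.5) gave a doublet score, and barcodes were removed by it only in an alternative. Sums and intervals used numpy 2.4.6, pandas 2.3.3 and scipy 1.17.1 under Python 3.11.15, and the scripts were tested on simulated data. TMM factors of edgeR and size factors of DESeq2 were alternatives only. Promoter windows came from RefSeq (GRCm38.p6).

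Named genes were the rule and identity genes; the 12 with the highest lowest and 8 with the lowest highest ratio against classical monocytes; for papain and for genotype, the 10 in each direction with the largest smaller ratio of both pairs; the 6 whose papain ratio differed most between genotypes; and from each list those with the most UMIs or past 2-fold. Mitochondrial, ribosomal, T cell receptor, immunoglobulin, haemoglobin and unnamed genes were left out of the ratio-based parts of this rule. Some genes of the lists are not reported here.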

Additional observations from a re-analysis of the deposited data

Results flagged for a closer look

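There were 7 genes with papain over DPBS ratios of opposite sign in WT and KO, each 2-fold or more. The difference between genotypes was not tested, since each rests on 1 library per group. Bounds of counting intervals are given in parentheses for ratios that rest on 1 to 3 UMIs in a library. On the log2 scale Retnla, a resistin-like effector of type 2 immunity, gave 7.97 (6.11, 11.02) in WT and -4.14 (-6.47, -2.51) in KO, the chemokine gene Ccl17 gave 3.77 and -3.02, the complement genes C1qa 2.95 (2.45, 3.50) and -5.92 (-11.25, -3.38), C1qb 1.91 and -3.65 and C1qc 2.50 (1.97, 3.07) and -3.75 (-6.09, -2.09), and the lectin genes Cd209a 1.48 and -1.52 and Clec10a 1.43 and -1.46. The UMIs lay in few members. Retnla had 2, 50, 560 and 3 UMIs in 2, 9, 10 and 3 cells, with 400 of the 560 in Papain WT in 1 cell. Ccl17 had 42, 183, 639 and 24 UMIs in 4, 5, 14 and 4 cells, with 276 of 639 in 1 cell. The C1q genes had 998 of 1027 UMIs in 8 Papain WT cells, and 0 of 385 Papain KO members held 10 or more. Cd209a had 30, 57, 93 and 21 UMIs in 4, 2, 13 and 1 cells. Clec10a was found in 15, 17, 22 and 17 cells, with 25 of 44 UMIs in DPBS KO and 23 of 54 in Papain WT in 1 cell.

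There were 5 genes with KO over WT ratios of opposite sign in the 2 treatments, again untested. They were Retnla with 4.73 (2.80, 7.82) in DPBS and -7.38 (-9.67, -5.83) in papain, Ccl17 with 2.21 and -4.57, the interferon-gamma-induced chemokine gene Cxcl9 with 1.63 (1.03, 2.26) and -4.59 (-9.95, -1.99), Clec10a with 1.38 and -1.51 and Cd209a with 1.02 and -1.99. Cxcl9 had 32, 93, 27 and 1 UMIs in 2, 6, 8 and 1 cells, with 74 of the 93 in DPBS KO in 1 cell. The comparisons share libraries, so a library that is high or low enters both lists.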

How the results depend on the processing

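No paired analysis was possible because each group holds 1 library, and leaving out a replicate was not possible for the same reason. The ratios of shares for KO over WT in DPBS and papain over DPBS in WT kept their direction under the other rules, filters, doublet removal and thinning. The exception was the share among both monocyte gates. There KO over WT in DPBS was 0.060 (-0.14, 0.26) in place of 0.41 and papain over DPBS in WT was -0.18 (-0.37, 0.01). Both of these intervals are too wide, since they are made for small shares. The number of genes past 2-fold depended on the filter, with 475, 389, 461 and 485 (KO over WT in DPBS and papain, papain over DPBS in WT and KO) at 30 UMIs and 2887, 2794, 2908 and 2872 without a filter, against 123, 83, 106 and 127. Requiring 3 of the 5 genes gave 52 for KO over WT in papain and 71 for papain over DPBS in KO. Leaving out members with genes of other cell types kept 411 members and 3327 genes and gave 58, 58, 67 and 68, with only 4, 0, 3 and 0 shared with the counts above. In that setting 58.6%, 19.0%, 62.7% and 30.9% of these genes were higher, against 42.3%, 33.7%, 53.8% and 41.7%. With TMM and DESeq2 scaling all 220 ratios of named genes stayed within their counting intervals, within which a ratio near 0 could change sign. Of the ratios near 0, KO over WT in papain and papain over DPBS in KO, the signs varied within the counting interval.

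Without the top cell of each library, C1qa was -1.36 for KO over WT in DPBS, Cxcl1 0.016 there and 0.15 for papain over DPBS in WT, Cxcl10 -0.28 for KO over WT in papain, Fscn1 -0.077 and Mgl2 -1.41 for papain over DPBS in KO. Requiring 3 of the 5 genes gave Cxcl10 -0.58 for papain over DPBS in WT, Lyz1 1.52 for KO over WT in papain and Mgl2 -4.73 for papain over DPBS in KO. A mean over cells gave Scgb1a1 0.013 for KO over WT in papain. Leaving out members rich in calgranulins or C1q, an alternative chosen after seeing the data, gave Ifitm1 -0.015 for papain over DPBS in WT and Wfdc17 0.27 for KO over WT in papain. The cause was not tested. At this depth 1 UMI is 0.248 to 0.294 CPM, so genes under a few CPM rest on few molecules.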

Other observations

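Levels of the inducible chaperone genes differed between libraries. The inducible chaperone gene Hspa1a was at 3079, 1832, 2961 and 2814 CPM and its near-identical copy Hspa1b at 1192, 776, 1624 and 1401 CPM, lowest in DPBS KO for both. Over the cells that were not members, the KO over WT log2 ratio of Hspa1a was -0.79 in DPBS, against -0.75 in the monocytes, and that of Hspa1b was -0.89, against -0.62. In papain the ratios of the other cells were -0.07 and -0.04, against -0.07 and -0.21. Of 23 immediate-early and heat shock genes, 0 were past 2-fold in any of the 4 comparisons. This is near the shares over all genes, 1.04% to 1.6%. Fos was at 1412, 1199, 1272 and 1442 CPM. Reads of this pair can be split between the copies.

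MHC class I and glycolysis genes differed by less than 2-fold, though not evenly in direction. Of 17 class I genes and 14 glycolysis genes, 0 were past 2-fold in any comparison, which is near the 1.04% to 1.6% of all genes. Class I medians were -0.19, 0.01, -0.17 and -0.06. The comparisons are KO over WT in DPBS and papain, then papain over DPBS in WT and KO. In that order 2, 9, 1 and 5 class I genes and 7, 10, 3 and 2 glycolysis genes had a ratio above 0. Of 12 MHC class II genes, Cd80 was 2-fold higher in DPBS KO, against 0.655% of all genes. The class II transactivator gene Ciita (22.9, 13.2, 24.3 and 10.5 CPM) and H2-DMb2 (15.8, 10.0, 23.3 and 8.32 CPM) were 2-fold lower in KO in papain, against 0.692%. The class II medians were -0.13, -0.34, 0.06 and -0.12 in the same order of comparisons, with 2, 2, 7 and 1 of the 12 genes above 0. Of 8 cell cycle genes with enough UMIs, Stmn1 was 2-fold higher in DPBS KO, against 0.655% of all genes. It was also 2-fold higher with papain in WT, against 0.718%. Its level was 8.84, 18.8, 32 and 32.4 CPM, with 57 and 72 of the UMIs of the papain libraries in 1 cell each.

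The inhibitory and activating receptors were also measured. The high-affinity IgG receptor gene Fcgr1 was at 54.4, 29.1, 47.9 and 33.6 CPM, with KO over WT at -0.90 (-1.27, -0.55) with DPBS and -0.51 (-0.85, -0.18) with papain on the log2 scale, and was named after its values were seen. Over the cells that were not members these ratios were -0.21 and -0.50.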
